A study of Rattus norvegicus with 6 samples.

Results

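Messenger RNA of 5 enzymes that protect cells from reactive oxygen species was examined in the kidney of rats with sub-total nephrectomy (SNx) and of non-operated rats (NoOp). The enzymes are Sod1 (ENSRNOG00000002115), Sod2 (ENSRNOG00000019048), Cat (ENSRNOG00000008364), Hmox1 (ENSRNOG00000014117) and Nqo1 (ENSRNOG00000012772), and they were selected by Ensembl identifier, as enzymes of this function, by a rule that uses no measured value, although earlier results of these data were known when the rule was made. All 5 were among the 23487 genes of the deposited count table, and all 5 were among the 13644 genes with enough counts to be tested. The 3 SNx libraries came from kidney of male Wistar Han rats in which part of the right kidney was resected and the left kidney was removed in a later operation, and the 3 NoOp libraries came from kidney of rats without either operation. No drug or transgene is named for either group, and the age of the rats is not given in the sources used here. The SNx rats were killed when serum creatinine or urinary protein passed a preset level, so that the time since surgery was not the same for every animal. The labels call the controls non-operated, although a legend of the study calls them sham, so that removal of kidney tissue and surgery as such cannot be told apart.

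The library totals ran from 9572955 to 13140864 estimated counts. Of the genes tested, 35.8% passed an adjusted p of 0.05 (limma, Benjamini-Hochberg), 19.2% as higher and 16.6% as lower in SNx. With library size in place of scaling factors these shares were 35.1%, 24.8% and 10.3%, and the median log2 fold change of all genes was 0.24 in place of 0.01. SNx replicate 3 lay nearer to the NoOp libraries than the other SNx libraries for Sod1, Sod2, Cat and Hmox1. Values without it are given below for Sod1, Cat, Hmox1, Gclm, Osgin1 and Col1a1. Other genes also moved without it, such as Sod2 from a log2 fold change of -0.49 to -0.56. Replicates were numbered in order of deposition and no number pairs an SNx with a NoOp rat.

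Superoxide, a by-product of mitochondrial respiration and of NADPH oxidases, is converted to hydrogen peroxide by superoxide dismutases, Sod1 in the cytosol and Sod2 in the mitochondrial matrix. Catalase (Cat) in peroxisomes, together with glutathione peroxidases and peroxiredoxins, then breaks hydrogen peroxide down. Hmox1 (haem oxygenase 1) degrades haem, and Nqo1 reduces quinones, and both are textbook targets of Nrf2, a transcription factor that is held back by Keap1 until oxidants or electrophiles release it. The kidney tubule, above all its proximal part, is rich in mitochondria and peroxisomes.

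The stretch of 250 bases before the annotated start of transcription was available for 4 of the 5 genes. That of Hmox1 was not available and was not searched. The sequences are from the RefSeq annotation of the GRCr8 build, which is not the build the counts were made on. Those of Sod1 and Cat are shown because these transcripts had the largest falls. That of Sod2 holds the only match, among these 4, to the core of the antioxidant response element that Nrf2 binds. That of Nqo1 is shown because this known Nrf2 target did not pass the test. Each is written from 5′ to 3′ on the strand of its gene, at chr11:42942573-42942822 (plus strand) for Sod1, chr3:110329527-110329776 (minus strand) for Cat, chr1:50050169-50050418 (minus strand) for Sod2 and chr19:52220268-52220517 (minus strand) for Nqo1. Capitals mark the motifs found on either strand.
Sod1: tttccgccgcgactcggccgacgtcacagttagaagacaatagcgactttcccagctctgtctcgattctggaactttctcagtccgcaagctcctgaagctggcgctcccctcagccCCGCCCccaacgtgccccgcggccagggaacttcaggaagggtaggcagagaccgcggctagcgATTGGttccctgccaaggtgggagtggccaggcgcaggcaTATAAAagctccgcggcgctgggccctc
Cat: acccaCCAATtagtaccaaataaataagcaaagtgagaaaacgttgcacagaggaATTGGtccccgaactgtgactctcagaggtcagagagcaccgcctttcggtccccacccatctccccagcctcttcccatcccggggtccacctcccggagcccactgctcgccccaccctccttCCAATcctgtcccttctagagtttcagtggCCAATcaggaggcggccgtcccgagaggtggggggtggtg
Sod2: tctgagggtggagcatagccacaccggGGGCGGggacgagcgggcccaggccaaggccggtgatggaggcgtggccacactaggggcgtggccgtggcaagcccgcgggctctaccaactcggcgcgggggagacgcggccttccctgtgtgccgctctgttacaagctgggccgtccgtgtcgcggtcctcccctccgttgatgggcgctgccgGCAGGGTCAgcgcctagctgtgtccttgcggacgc
Nqo1: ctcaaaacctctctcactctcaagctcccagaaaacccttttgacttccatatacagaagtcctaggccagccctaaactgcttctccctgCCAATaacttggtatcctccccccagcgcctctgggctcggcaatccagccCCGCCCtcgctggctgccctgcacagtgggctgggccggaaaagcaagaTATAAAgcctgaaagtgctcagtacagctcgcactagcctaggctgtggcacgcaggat

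The motifs searched were the antioxidant response element core TGACNNNGC, the AP-1 site TGANTCA, the GC box GGGCGG, the CCAAT box and the TATA box TATAAA. Sod2 held the antioxidant response element core once, as GCAGGGTCA on the opposite strand with its first letter 35 bases before the start, and 10.1% of 33469 RefSeq promoters of the same length hold this pattern. The Cat sequence held the CCAAT box 4 times, and 34.0% of promoters hold it at least once. Sod1 and Nqo1 each held a TATA box, which is present in 12.9% of promoters, and a single CCAAT box. A GC box, found in 30.5% of promoters, was present in Sod1, Sod2 and Nqo1. No AP-1 site, found in 6.34% of promoters, was present in these 4 sequences. The sequence of Sod2 was the richest in G and C, at 71.6%, against 63.2% for Sod1, 58.8% for Cat and 56.4% for Nqo1, with a median of 51.2% over all promoters. These are matches of letters in a short window, and elements farther from the start were not searched.

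Transcripts of 3 of the 5 enzymes, Sod1, Sod2 and Cat, passed the test as lower in SNx, as did 16.6% of all genes tested. Hmox1 passed as higher, as did 19.2% of all genes tested, and Nqo1 did not pass the test. Cat fell the most, to 25.4% of the NoOp level, Sod1 to 43.6% and Sod2 to 71.2%, while Hmox1 was 5.15-fold higher. The SNx and NoOp libraries did not overlap in level for 4 of the 5 genes, against 51.6% of all genes tested (27.1% higher and 24.5% lower). Levels are given as CPM, the counts of a gene relative to the library total, after library scaling with TMM (a trimmed mean of log ratios between libraries), and a level is compared between libraries for the same gene only, since the values are not levels per transcript length. In bulk tissue, fewer cells of a type and less RNA per cell cannot be told apart.

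**Figure D1:**
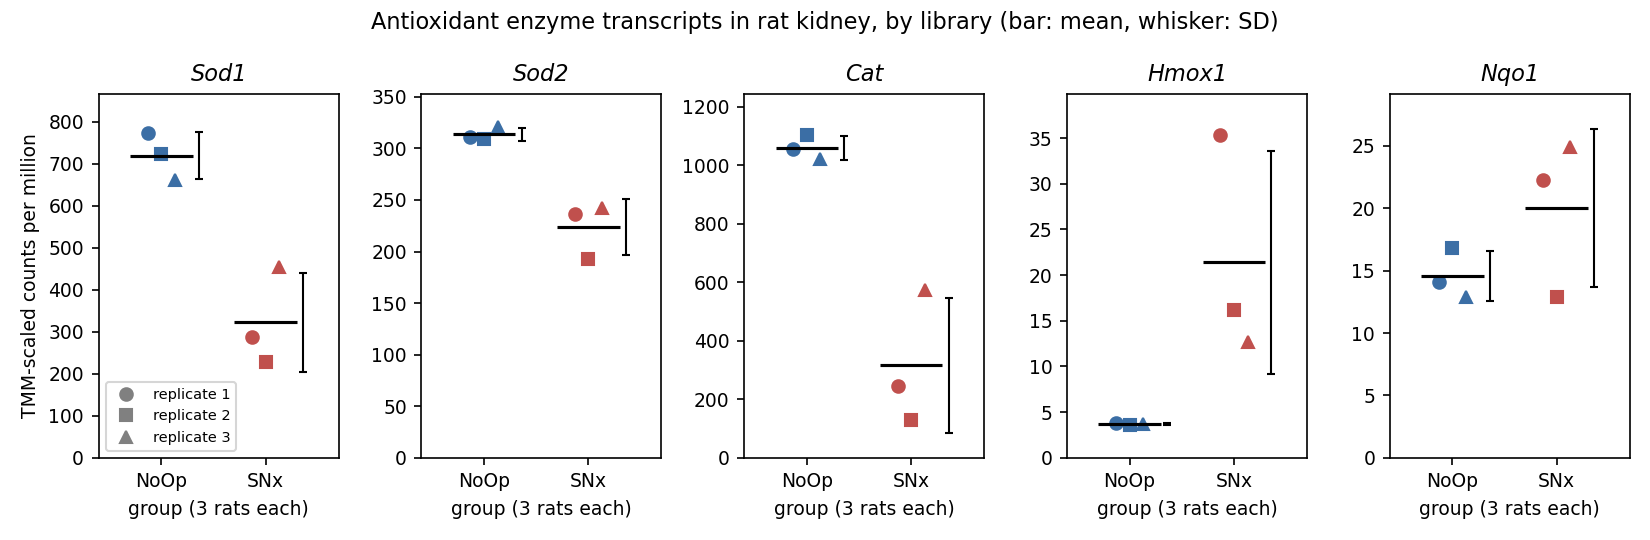
TMM-scaled CPM (vertical axis, from 0, a separate scale for each gene) of Sod1, Sod2, Cat, Hmox1 and Nqo1 in the 3 NoOp and 3 SNx libraries. Each symbol is a library, the horizontal bar is the group mean and the whisker is the SD (n = 3). The groups do not overlap for Sod1, Sod2, Cat and Hmox1 and do overlap for Nqo1, where SNx replicate 2 lies among the NoOp libraries.

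Sod1, the copper and zinc enzyme of the cytosol, had 7938, 9138 and 6879 estimated counts in the NoOp libraries against 2981, 2944 and 4301 in the SNx libraries, both in replicate order. On the CPM scale these were 772, 723 and 661 in NoOp, and 287, 227 and 454 in SNx. Every SNx library was below every NoOp library, and SNx replicate 3 was the highest of the SNx group. The group means were 718 ± 55.8 CPM for NoOp and 323 ± 118 CPM for SNx (SD, n = 3 each). The log2 fold change, -1.20, had a standard error of 0.26 and a 95% interval from -1.80 to -0.60 (limma adjusted p 0.0113), lower in 3 of 3 SNx libraries. Without SNx replicate 3 it was -1.49 (limma adjusted p 0.000572). The call was kept under all 15 other settings and libraries left out that were tried, with an adjusted p of at most 0.0393.

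Sod2, the manganese enzyme of the mitochondrial matrix, had 3200, 3908 and 3339 estimated counts in the NoOp libraries and 2453, 2493 and 2296 in the SNx libraries, in replicate order. The CPM values were 311, 309 and 321 in NoOp, and 236, 193 and 243 in SNx. The NoOp libraries were close together, and all SNx libraries lay below them. The means were 314 ± 6.13 and 224 ± 27.2 CPM (SD, n = 3 each), and the log2 fold change of -0.49 (standard error 0.13) had a 95% interval from -0.79 to -0.19 and a limma adjusted p of 0.0231. This is the highest adjusted p of the 4 calls. With library size in place of TMM scaling the difference was -0.27 (limma adjusted p 0.0955), although the groups still did not overlap, at 275, 297 and 299 CPM in NoOp and 248, 233 and 240 CPM in SNx. The call was also lost without any of NoOp replicates 1, 2 and 3 or without SNx replicate 2, with limma adjusted p values of 0.0501, 0.0628, 0.0878 and 0.0538 and log2 fold changes of -0.50, -0.52, -0.48 and -0.40.

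Cat, the peroxisomal enzyme that splits hydrogen peroxide, had 10863, 13941 and 10645 estimated counts in the NoOp libraries against 2535, 1694 and 5425 in the SNx libraries, both in replicate order. The CPM values were 1056, 1103 and 1022 in NoOp, and 244, 131 and 573 in SNx. The groups were far apart, but the SNx libraries differed among themselves by 2.13 on the log2 scale, against 0.11 in NoOp, with SNx replicate 2 lowest and SNx replicate 3 highest. The mean was 316 ± 230 CPM in SNx against 1061 ± 40.5 CPM in NoOp (SD, n = 3 each). The log2 fold change, -1.98, had a standard error of 0.52 and a 95% interval from -3.18 to -0.78 (limma adjusted p 0.0217), and 3.09% of the genes tested had a lower value. Without SNx replicate 3 the log2 fold change was -2.56 (limma adjusted p 0.000557). Leaving out NoOp replicate 1, 2 or 3 or SNx replicate 1 took the limma adjusted p to 0.0620, 0.0629, 0.0692 and 0.0606, with log2 fold changes between -2.01 and -1.91. Without SNx replicate 2 the value was -1.50 (limma adjusted p 0.0251).

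Together, Sod1, Sod2 and Cat took 0.189%, 0.205% and 0.187% of all estimated counts in the NoOp libraries, against 0.0806%, 0.0666% and 0.126% in the SNx libraries. Cat alone made up 0.0982% ± 0.00689 for NoOp and 0.0327% ± 0.0213 for SNx (SD, n = 3 each). For both shares the exact two-sided permutation p was 0.1, and groups of 3 libraries allow no smaller value. This outcome was fixed, because Sod1, Sod2 and Cat were each lower in every SNx library without scaling factors too. The shares are therefore no further evidence.

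Hmox1, the inducible enzyme that opens the haem ring to release biliverdin, iron and carbon monoxide, was scarce in NoOp kidney. It had 39, 46 and 39 estimated counts in the NoOp libraries against 367, 209 and 120 in the SNx libraries, both in replicate order. The 95% Poisson intervals, which cover counting error only, ran from 27.7 to 53.3 for a count of 39 and from 99.5 to 143 for the lowest SNx count of 120. The CPM values were 3.79, 3.64 and 3.75 in NoOp, and 35.3, 16.2 and 12.7 in SNx. The NoOp libraries were nearly equal, and all SNx libraries lay above them, SNx replicate 1 the highest and SNx replicate 3 the lowest. The means were 3.73 ± 0.0782 and 21.4 ± 12.2 CPM (SD, n = 3 each). The log2 fold change, 2.36, had a standard error of 0.51 and a 95% interval from 1.17 to 3.56 (limma adjusted p 0.0114), and 96.2% of the genes tested had a lower value. The call was kept under all 15 other settings and libraries left out that were tried, between 1.95 without SNx replicate 1 and 2.63 without SNx replicate 3, with an adjusted p of at most 0.0475.

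Nqo1, which reduces quinones directly to hydroquinones, had 145, 212 and 134 estimated counts in the NoOp libraries against 231, 167 and 236 in the SNx libraries, both in replicate order. The CPM values were 14.1, 16.8 and 12.9 in NoOp, and 22.2, 12.9 and 24.9 in SNx. The groups overlapped, because SNx replicate 2 was at the lowest NoOp level while the other SNx libraries were above all NoOp libraries. The means were 14.6 ± 2.0 and 20.0 ± 6.31 CPM (SD, n = 3 each). The log2 fold change, 0.36, had a standard error of 0.27 (limma adjusted p 0.329), and its 95% interval, from -0.27 to 1.0, holds values from 0.831-fold to 1.99-fold. Without SNx replicate 2 it was 0.68 (standard error 0.17) and the limma adjusted p was 0.0327, so that this library decides the call.

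**Figure D2:**
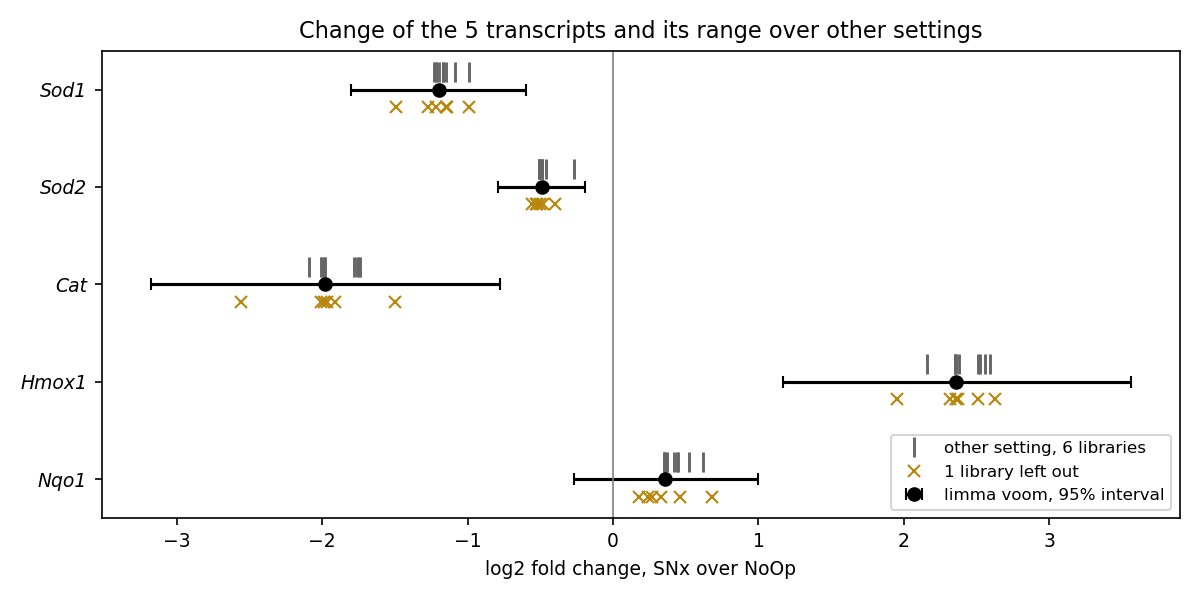
Log2 fold change of SNx over NoOp (horizontal axis) for the 5 transcripts. Black points with bars are the limma estimates with 95% intervals, grey ticks above them are 9 other settings with all 6 libraries, and crosses below them are the 6 fits with 1 library left out. All values lie below 0 for Sod1, Sod2 and Cat and above 0 for Hmox1 and Nqo1, and the interval of Nqo1 includes 0.

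The authors' normalized table, which holds log2 CPM values, gave its own levels for the same libraries. Sod1 was at 9.46 ± 0.12 in NoOp and 8.29 ± 0.52 in SNx, and Cat at 10.05 ± 0.06 and 8.04 ± 1.07 (log2 CPM, SD, n = 3 each). Sod2 was at 8.29 ± 0.04 and 7.79 ± 0.18, Hmox1 at 1.91 ± 0.03 and 4.28 ± 0.77, and Nqo1 at 3.85 ± 0.19 and 4.28 ± 0.50 on the same scale. The log2 fold changes from this table were -1.17, -2.01, -0.50, 2.38 and 0.42 for Sod1, Cat, Sod2, Hmox1 and Nqo1, with limma adjusted p values of 0.0104, 0.0137, 0.0185, 0.00326 and 0.233. The spread of the SNx libraries was larger than that of the NoOp libraries for all 5 transcripts. On the TMM-scaled log2 scale the SD in SNx was 0.51 for Sod1, 0.18 for Sod2, 1.07 for Cat, 0.77 for Hmox1 and 0.50 for Nqo1, and the SD in NoOp was 0.11, 0.03, 0.05, 0.03 and 0.19. The median SD over all genes tested was 0.23 in SNx and 0.18 in NoOp.

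The sample titles carry library numbers in 2 separate ranges. The lower range holds NoOp replicate 1 beside SNx replicates 1 and 2. The higher one holds NoOp replicates 2 and 3 beside SNx replicate 3. A difference of SNx replicate 3 from the other SNx libraries can therefore not be told apart from one between the ranges. What the ranges stand for is not given, and with 1 library of a group in each range the differences within a range have no test. The difference of SNx from NoOp in log2 CPM was -1.59 in the lower and -0.60 in the higher range for Sod1, -0.54 and -0.38 for Sod2, and -2.56 and -0.89 for Cat. For Hmox1 it was 2.60 and 1.73, and for Nqo1 0.26 and 0.76. The direction was the same in both ranges for each of the 5 transcripts. For Sod1, Sod2, Cat and Hmox1 this had to be so, because their groups do not overlap. With a term for the range in the fit, the limma adjusted p was 0.0158 for Sod1, 0.0348 for Sod2, 0.0211 for Cat, 0.0190 for Hmox1 and 0.187 for Nqo1.

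The 5 transcripts were next set against each other within each library, since the ratio of 2 transcripts in the same library does not depend on how libraries are scaled. All 10 pairs were compared, and in all 10 the SNx libraries did not overlap the NoOp libraries. Each had an exact two-sided permutation p of 0.1, the smallest that 3 libraries against 3 can give. The adjusted p of this test over the 10 pairs was also 0.1, so that none can pass 0.05 in this design. The pairs share 5 genes and are not independent. Those of Hmox1 with Sod1, Sod2 or Cat had to separate, because these genes already did so in opposite directions. The share of all gene pairs that separate was not computed, and 51.6% of single genes tested did. The largest shift was in the ratio of Cat to Hmox1, whose log2 value was 8.10, 8.23 and 8.07 in the NoOp libraries against 2.79, 3.02 and 5.49 in the SNx libraries. The ratio was 20.7-fold lower in SNx.

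The balance between the matrix and the cytosolic superoxide dismutase also differed. The log2 ratio of Sod2 to Sod1 was -1.31, -1.23 and -1.04 in the NoOp libraries, and -0.28, -0.24 and -0.91 in the SNx libraries. It was higher in every SNx library, but SNx replicate 3 lay only a little above NoOp replicate 3. The means were -1.19 ± 0.14 and -0.48 ± 0.37 (SD, n = 3 each), a difference of 0.72 or 1.64-fold.

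The 2 Nrf2 targets among the 5, Hmox1 and Nqo1, did not keep a fixed ratio. Its log2 value was -1.88, -2.19 and -1.77 in the NoOp libraries against 0.67, 0.32 and -0.97 in the SNx libraries. All SNx libraries were above all NoOp libraries, with means of 0.01 ± 0.86 and -1.95 ± 0.22 (SD, n = 3 each), a difference of 1.95 or 3.87-fold. The ratio of Sod1 to Cat was higher in SNx by 0.80 on the log2 scale, and that of Sod2 to Cat by 1.51. SNx replicate 3 was nearest to NoOp in both.

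**Figure D3:**
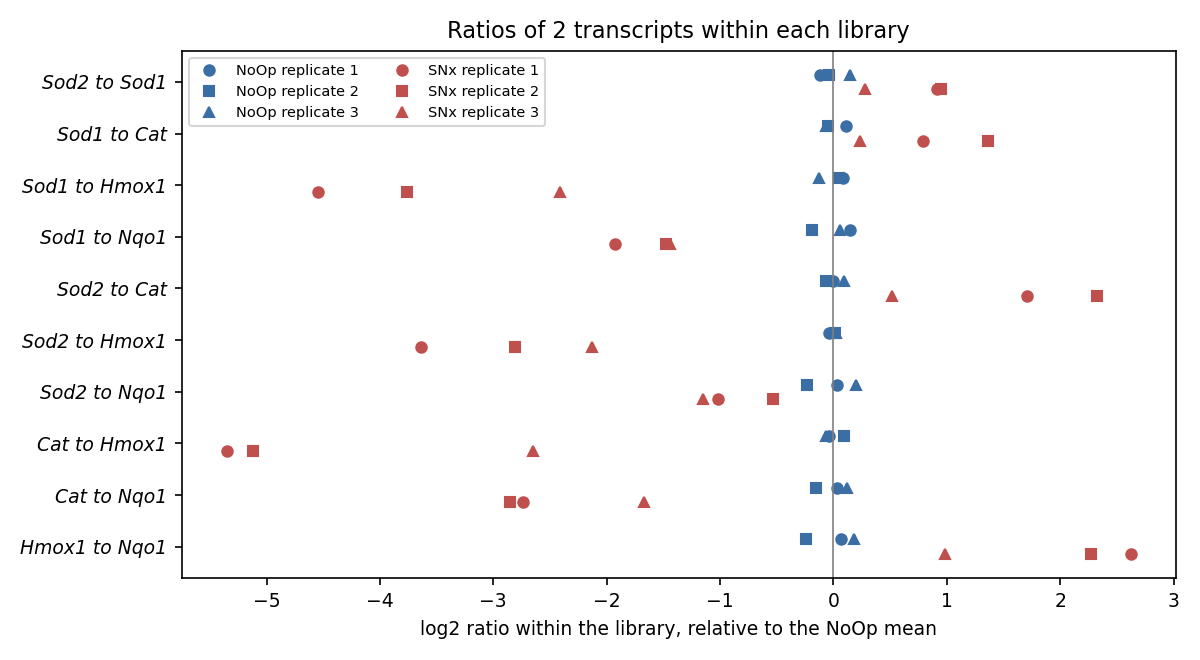
Log2 ratio of 2 transcripts within each library, relative to the mean of the NoOp libraries (horizontal axis, 0 is the NoOp mean), for the 10 pairs of the 5 transcripts. Blue symbols are NoOp and red symbols SNx libraries. The groups do not overlap in any of the 10 pairs. Those of Hmox1 with Sod1, Sod2 or Cat had to separate, because these genes do so in opposite directions. SNx replicate 3 (red triangle) is the SNx library nearest to NoOp in every pair but Sod2 to Nqo1.

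Other genes of the same pathways were taken from lists arranged by role. The files name genes by identifier only, and symbols were taken from the authors' own published pairing of identifiers and symbols, held here only for the 2007 genes nearest the top of their lists by p. It gave an identifier for 39 listed genes beside the members. That these genes passed the test is therefore fixed by how they were found and is no evidence about the pathway. Their adjusted p values are given for completeness only, no count of calls is drawn from them, and what is described is their direction and level. Nfe2l2 (which encodes Nrf2), Keap1, Bach1, Gclc, Srxn1 and Sod3 had no identifier there and are not analysed here.

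Among genes that remove peroxide, Gpx3, the secreted glutathione peroxidase that the kidney makes for plasma, fell from 9017 ± 2349 CPM in NoOp to 2760 ± 714 CPM in SNx (SD, n = 3 each), a log2 change of -1.71 (limma adjusted p 0.00464). Prdx3, the mitochondrial peroxiredoxin, fell by 0.76 on the log2 scale, with a standard error of 0.14 (limma adjusted p 0.00725). Gpx2, a glutathione peroxidase typical of epithelia, rose, with 381, 752 and 585 counts in the SNx libraries against 290, 22 and 35 in the NoOp ones. NoOp replicate 1 stood apart from the other NoOp libraries for Gpx2. Its log2 fold change of 3.29 (limma adjusted p 0.0139) came to 2.25 in edgeR (quasi-likelihood) and 2.19 in DESeq2, and neither called it (adjusted p 0.0781 and 0.116). Without NoOp replicate 1 it was 4.4 (limma adjusted p 0.0126), and without NoOp replicate 2 it was 2.37 and not called (limma adjusted p 0.0636). The call was also lost without NoOp replicate 3 (limma adjusted p 0.0637) and, at 2.34, with a term for the range of library numbers (limma adjusted p 0.0696).

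Genes of glutathione and thioredoxin metabolism went both ways. Gclm, the modifier subunit of the enzyme that limits glutathione synthesis, had CPM values of 1287, 1111 and 1120 in NoOp, and 203, 149 and 591 in SNx. It fell by 2.14 on the log2 scale (limma adjusted p 0.0164), and SNx replicate 3 was again the highest SNx library. Without NoOp replicate 1 or 3 the log2 fold change was -2.08 or -2.18 and the call was lost, with a limma adjusted p of up to 0.0561. Without SNx replicate 3 it was -2.75 (limma adjusted p 0.000194). Gss, glutathione synthetase, fell by 1.62, and Txnrd1, the cytosolic thioredoxin reductase, fell by 0.70 (limma adjusted p 0.0101 and 0.00606). Of the enzymes that repair oxidised methionine, Msra fell by 2.07 and Msrb1 fell by 1.63. Slc7a11, the cystine importer that feeds glutathione synthesis, was hardly detected in NoOp, with 0, 2 and 1 counts, against 48, 31 and 16 in SNx. The ratio of its summed counts, SNx over NoOp, corrected for the TMM-scaled library sizes, was 32.2 (95% counting interval 10.7 to 159). This interval covers counting error only and leaves out the spread between rats. The limma log2 fold change of Slc7a11 was 4.61 (95% interval 2.88 to 6.33). Glrx, a glutaredoxin, rose by 1.09 (limma adjusted p 0.00559).

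The conjugating and reducing enzymes also split by gene. Nqo2, the paralog of Nqo1, fell by 2.10 on the log2 scale (limma adjusted p 0.00220), from 69.5, 64.0 and 70.6 CPM in NoOp to 16.9, 10.8 and 23.8 CPM in SNx. Ephx1, the microsomal epoxide hydrolase, fell by 1.69, Ugdh, which makes UDP-glucuronate, fell by 1.21, and Akr1a1, an aldehyde reductase, fell by 1.19. Among glutathione transferases, Gstt2 fell by 1.72 and Mgst3 fell by 1.31, while Gstm1 rose by 1.91 (limma adjusted p 0.00151). Mgst2 had 3, 2 and 3 counts in NoOp and 44, 42 and 27 in SNx. The ratio of summed counts, corrected in the same way, was 14.3 (95% counting interval 7.04 to 34.0, without the spread between rats). The limma log2 fold change of Mgst2 was 3.63 (95% interval 2.52 to 4.73). Transferase genes have close copies, and how the estimates divide reads between them was not analysed.

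Of further genes known as Nrf2 targets, those described here do not stand for the group as a whole. Others given above went both ways, with Slc7a11 and Gstm1 higher and Gclm and Txnrd1 lower in SNx. Osgin1, an oxidative stress response gene, fell by 2.69 (limma adjusted p 0.0183) and Me1, the cytosolic malic enzyme that makes NADPH, fell by 1.64 (limma adjusted p 0.00767). The call of Osgin1 was lost without NoOp replicate 1, 2 or 3 or SNx replicate 1, with a limma adjusted p of up to 0.0582 and log2 fold changes of -2.60, -2.71, -2.78 and -2.56. It was kept without SNx replicate 2 at -2.02 and without SNx replicate 3 at -3.46 (limma adjusted p 0.0283 and 0.000303). Idh1, a further source of NADPH, fell by 1.05. Blvra, the biliverdin reductase that acts on the product of Hmox1, fell by 2.13 (limma adjusted p 0.00292), the opposite direction to Hmox1.

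Genes of NADPH oxidases were also in the lists. Cybb, Ncf1 and Ncf4, subunits of the phagocyte NADPH oxidase, rose by 2.63, 2.55 and 2.60 on the log2 scale (limma adjusted p 0.00177, 0.00116 and 0.00177). Nox4, the oxidase of the renal tubule, fell by 2.02 (limma adjusted p 0.00176), from 116, 103 and 119 CPM in NoOp to 23.4, 23.6 and 40.1 CPM in SNx. Of the peroxisome list, which concerns the organelle where catalase acts, 3 genes are given with no statement on the others. Pex11a, a peroxisome division factor, fell by 2.04, Pxmp2, a membrane channel, fell by 1.79, and Abcd3, a fatty acid transporter, fell by 1.20 (limma adjusted p 0.00256, 0.00428 and 0.00469 in that order).

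**Figure D4:**
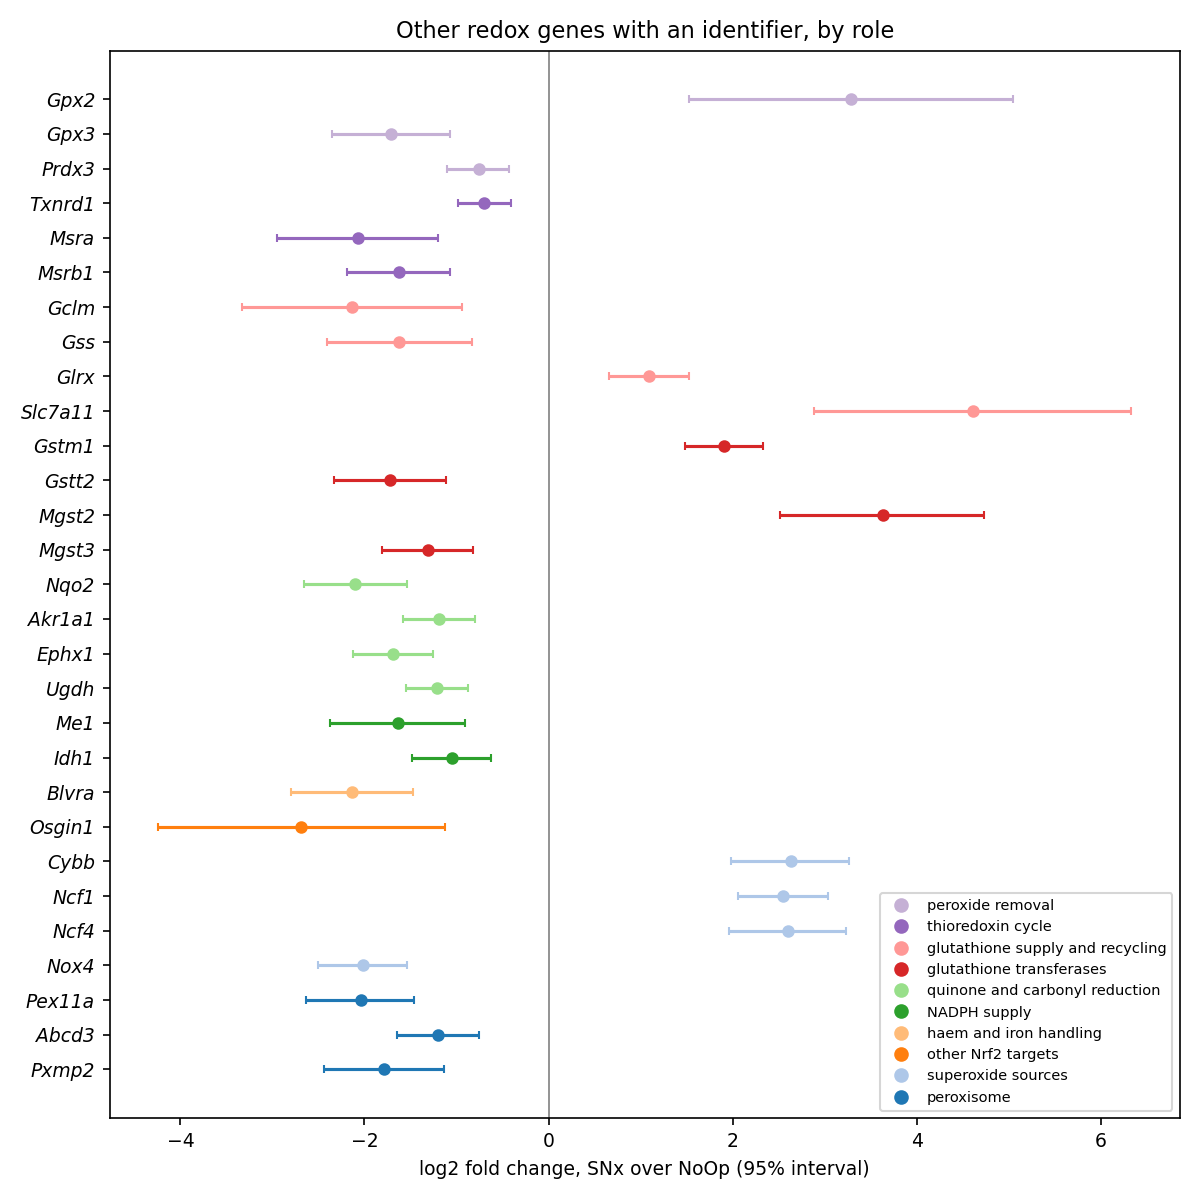
Log2 fold change of SNx over NoOp with 95% limma intervals (horizontal axis) for 29 redox and peroxisomal genes other than the 5 enzymes, coloured by role. The genes could be identified only because they stood high in the authors' list by p, so that their passing the test is fixed by the choice, and the plot shows direction and size only.

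Markers of cell types changed together with the enzymes. The label of kidney was checked on 8 proximal tubule markers, of which 6 had an identifier and none was at 0. Their summed level was 10308 to 10803 CPM in NoOp, and 2361, 1503 and 3707 CPM in SNx replicates 1, 2 and 3, the same order of SNx libraries as for Sod1, Sod2 and Cat, which fell, and for Nqo1, which did not pass the test. Of these, Lrp2, the endocytic receptor megalin, fell by 2.22 and Slc22a8, an organic anion transporter, fell by 3.24 on the log2 scale, while Cubn, the partner receptor cubilin, fell by 1.62 and Aqp1, a water channel, fell by 1.61. Of 10 macrophage and monocyte markers, 7 had an identifier and none was at 0, and their sum was 56.3 to 71.5 CPM in NoOp, and 439, 365 and 173 CPM in SNx replicates 1, 2 and 3. This is the same order of SNx libraries as for Hmox1, although not every marker of the sum kept it. Cd68, a lysosomal marker of macrophages, rose by 3.40 and Csf1r, their growth factor receptor, by 1.77, and C1qa and C1qb, chains of complement C1q, rose by 2.76 and 2.59. The same order held for Cd4, at 55.2, 49.0 and 21.8 CPM in the SNx libraries against 6.34 to 11.3 CPM in NoOp. Cd4 was the only gene of the T and B cell list with an identifier, and which cells it came from was not tested. This order of SNx libraries also held for Col1a1, a chain of collagen I and the fibroblast marker with an identifier. Its level was 876, 402 and 116 CPM in SNx against 21.8 to 36.9 CPM in NoOp. Cd4 rose by 2.15 and Col1a1 by 3.58 (limma adjusted p 0.0102 and 0.00644). For Col1a1 the value fitted without SNx replicate 3 was higher, at 4.39, and that without SNx replicate 1 lower, at 2.88. The part of these cell types in the results was not tested, and all these markers were found in the same way as the genes above. Slc22a8 did not keep the order of the tubule sum, at 107, 26.3 and 70.7 CPM in SNx replicates 1, 2 and 3. How many of all genes tested share either order was not counted.

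Set against the proximal tubule markers of the same library, Cat was 9.92%, 10.7% and 9.46% of their summed level in the NoOp libraries against 10.3%, 8.71% and 15.5% in the SNx libraries, so that the groups overlapped. Sod1 was 7.25%, 7.01% and 6.12% in NoOp, and 12.2%, 15.1% and 12.3% in SNx. Sod2 was 2.92%, 3.0% and 2.97% in NoOp, and 10%, 12.8% and 6.54% in SNx, and both superoxide dismutases were above all NoOp libraries on this scale. Hmox1 was 5.31%, 5.18% and 6.66% of the summed macrophage markers in NoOp, and 8.06%, 4.43% and 7.35% in SNx, with overlap. These are descriptions on markers that were themselves found as changed genes. The summed tubule markers fell strongly in SNx, so that a transcript with a smaller fall is higher on this scale by construction. The overlap of Cat and of Hmox1 means only that each changed about as much as its marker sum. Loss or gain of cells was not tested.

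The gene whose pattern was most like each enzyme was sought among the identified genes by Pearson correlation of log2 CPM over the 6 libraries, as a description. Because the libraries form 2 groups, genes that separate the groups in the same direction as the enzyme tend to have a high value. For Sod1 it was Slc6a13 (0.9998), for Cat it was Acy3 (0.9994), for Sod2 it was Scrn3 (0.9991) and for Hmox1 it was Hk3 (0.9991). The highest value for Nqo1 was 0.8017, with Lcat. Each enzyme had 2000 or 2001 candidates, held because they stood high in the authors' list by p. Genes that do not separate the groups, as Nqo1 does not, were therefore less likely to be among them.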

How the data were processed

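Kidney RNA of 3 SNx and 3 NoOp rats was depleted of ribosomal RNA and sequenced in pairs with strand-specific libraries, although the labels name polyA RNA. The authors estimated transcript abundance against an rn6 transcriptome and summed it per gene with tximport, and the submitters' processing notes name Salmon and limma. The deposited raw table holds estimated counts as whole numbers for 23487 genes, and per the study's methods tximport gave length-scaled estimates, but whether this table or the normalized table alone holds those was not settled. The deposited normalized table holds log2 CPM values made with voom in limma for 12135 genes. The version of Salmon and the annotation release are not given in the sources used here. RNA integrity varied widely over the study's samples and is not given per library. The 12 single-library files equalled their columns in the series tables.

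Estimated counts were filtered with filterByExpr of edgeR 4.0.16 (minimum count 10, minimum total 15), and the libraries were scaled by TMM. The fit used voom and limma 3.58.1 (R 4.3.3) and no covariate beside group. P-values are two-sided and were adjusted by Benjamini-Hochberg over the 13644 genes, with a threshold of 0.05. The code was tested on simulated data. Ratios of 2 transcripts used an offset of 0.5 counts and log2 CPM a prior count of 2. The alternatives were edgeR's quasi-likelihood test, DESeq2 1.42.0, library size alone, DESeq2 size factors, 2 other filters, sample weights, the normalized table, a term for the range of library numbers, and each library left out. The members and lists were chosen with earlier results of these data known. Beside the members, the rule for naming genes took from each list up to 4 past the threshold with the smallest p, and Gclm, Txnrd1, Slc7a11 and Gpx3 whatever their values. A further 2 genes that this rule selected are not reported here. No genome of the build was used, so that gene coordinates on rn6 are not given.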

Additional observations from a re-analysis of the deposited data

How the results depend on the processing

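No paired analysis was possible because the labels give no replicate numbers that the groups share. The log2 fold changes of Sod1 and Hmox1 kept their direction and their call under all 15 alternatives. Sod2 changed from -0.49 to -0.27 and lost its call with library size alone, where the median log2 fold change of all genes tested was 0.24 in place of 0.01 and the lower genes numbered 1402 in place of 2271. Leaving out 1 library at a time gave -1.49 to -0.99 for Sod1, -0.56 to -0.40 for Sod2, -2.56 to -1.50 for Cat, 1.95 to 2.63 for Hmox1 and 0.18 to 0.68 for Nqo1, which passed only without SNx replicate 2, while Sod2 lost its call in 4 of these fits and Cat in 4. It gave 2857 to 5764 genes called in all, 1497 to 3201 higher and 1360 to 2563 lower, lowest without NoOp replicate 3 and highest without SNx replicate 3. The log2 difference in the ratio of Sod2 to Sod1 was 0.72 with an offset of 2 and 0.67 with the normalized table, and 0.60 to 0.93 with 1 library left out. For Hmox1 to Nqo1 it was 1.92 and 1.95, and 1.62 to 2.44. Among the other pathway genes named, Gpx2, Osgin1 and Gclm lost their call in at least 1 setting, as given with their values above. No direction of the 5 enzymes reversed. The planned counts over the pathway lists were not run, because identifiers were held only for genes chosen by p.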
